A study of Mus musculus with 28 samples.

Results

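Transcript levels of 10 genes that code for subunits of the Polycomb repressive complex PRC2 (Ezh1, Ezh2, Eed, Suz12, Rbbp7, Mtf2, Phf1, Phf19, Jarid2 and Aebp2) were followed while mouse fibroblasts were reprogrammed to induced pluripotent stem cells (iPSCs). The genes were taken by symbol from the 37620 rows of a table of read counts per gene, all 10 were found, and all 10 passed the filter on low counts. Poly(A) RNA had been sequenced in 28 libraries from 14 groups of 2. Both genotypes, WT and K36M, were sampled as mouse embryonic fibroblasts (MEFs, d0), on days 2, 4, 6 and 8 after the start of reprogramming by the factor set OKSM (Oct4, Klf4, Sox2, Myc; written d2 to d8), once passaged iPSCs had formed, and as MEFs that lacked OKSM (noOKSM). MEFs were kept in DMEM with serum, reprogramming cells in AGi medium and iPSCs in S/L medium, so that stage and medium cannot be told apart when MEFs, reprogramming cells and iPSCs are compared. In K36M, a methionine stands in place of lysine K36 of histone H3; library names carry H3.3 for WT and K36M for the mutant, and gene counts do not read the substitution itself. The way in which K36M and OKSM were carried into the cells is not given in the sources used here, and neither are the mouse strain and the age of the embryos. Whether the 2 libraries of a group were separate cultures is not said in the labels. P-values therefore reflect only how far these libraries spread, and that spread may be technical. The model of all 14 groups gives each gene an estimate of spread that all groups share. The p-value and standard error at a stage therefore do not measure the spread of that stage's own libraries alone.

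PRC2 methylates lysine K27 of histone H3, a mark of silenced developmental genes, and is known to be needed when somatic cells are turned into pluripotent ones and when pluripotent cells differentiate. EZH1 or EZH2 is its catalytic subunit, EED and SUZ12 complete the core, and RBBP7 or its close relative RBBP4 binds histones. Accessory subunits define alternative forms of the complex: the Polycomb-like proteins MTF2, PHF1 and PHF19 occupy one form, and JARID2 and AEBP2 the other. Methylation of H3 lysine K36 on the same tail is known to hinder PRC2, and K36M histones are known to block enzymes that place it.

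The promoters of 5 members are shown: Jarid2 as the member with the widest range of levels, Ezh2 and Ezh1 as the alternative catalytic subunits, and Suz12 and Phf19 as the only members whose window held a match to the motif searched. Each sequence is the 250 bases before the RefSeq transcription start on GRCm38.p6, written from 5′ to 3′ on the gene's strand, and capitals mark a match to TTTCCCGC, TTTGGCGC, TTTCGCGC or TTTGCCGC, forms of the element read by E2F factors, on either strand (opposite-strand letters GCGGGAAA, GCGCCAAA, GCGCGAAA and GCGGCAAA; no other motif was searched).
Jarid2 (first of its 2 windows), chr13:44730524-44730773, plus strand: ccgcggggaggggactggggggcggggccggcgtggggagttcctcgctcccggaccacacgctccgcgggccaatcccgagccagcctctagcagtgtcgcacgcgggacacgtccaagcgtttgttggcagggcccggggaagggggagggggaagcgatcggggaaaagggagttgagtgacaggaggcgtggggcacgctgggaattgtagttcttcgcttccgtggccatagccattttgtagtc
Ezh2, chr6:47595031-47595280, minus strand: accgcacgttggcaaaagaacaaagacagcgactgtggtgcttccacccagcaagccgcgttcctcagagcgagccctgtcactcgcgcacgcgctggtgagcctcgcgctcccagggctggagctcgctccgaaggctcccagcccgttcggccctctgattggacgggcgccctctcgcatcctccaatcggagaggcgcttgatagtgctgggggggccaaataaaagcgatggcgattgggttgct
Ezh1, chr11:101226464-101226713, minus strand: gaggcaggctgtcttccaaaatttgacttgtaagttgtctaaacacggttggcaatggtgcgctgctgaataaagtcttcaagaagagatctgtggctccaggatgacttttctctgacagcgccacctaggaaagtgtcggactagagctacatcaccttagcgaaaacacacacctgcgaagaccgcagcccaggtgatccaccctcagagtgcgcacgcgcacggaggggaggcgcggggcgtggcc
Suz12, chr11:79992856-79993105, plus strand: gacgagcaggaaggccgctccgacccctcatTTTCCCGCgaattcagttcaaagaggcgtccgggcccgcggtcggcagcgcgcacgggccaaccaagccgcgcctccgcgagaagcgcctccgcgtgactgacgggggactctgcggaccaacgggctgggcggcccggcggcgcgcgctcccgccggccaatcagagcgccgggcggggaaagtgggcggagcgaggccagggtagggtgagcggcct
Phf19, chr2:34913977-34914226, minus strand: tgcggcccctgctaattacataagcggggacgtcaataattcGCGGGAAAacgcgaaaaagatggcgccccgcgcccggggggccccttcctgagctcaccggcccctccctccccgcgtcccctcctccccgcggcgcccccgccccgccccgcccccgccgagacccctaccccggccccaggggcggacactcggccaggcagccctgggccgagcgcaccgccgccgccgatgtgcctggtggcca
All 10 members had a window, 14 windows in all, of which 2 held a match, against 611 of 32851 windows of the same length over all genes (1.86%). The match in Suz12 began 219 bases before the start on the gene's strand, and that in Phf19 lay 208 bases before it in the opposite orientation. The Suz12 window had a GC content of 73.6% with 37 CpG sites, that of Phf19 75.2% with 31, that of Jarid2 67.2% with 23, that of Ezh2 63.6% with 23 and that of Ezh1 55.2% with 14. All of these exceeded the medians over all windows, which were 52.4% and 6 CpG sites. A missing match says only that these letters are not in this window.

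Counts summed over genes ran from 17507521 to 35622279 per library. Replicates correlated at 0.993 or higher over log2 values in every group but 1: the K36M d6 libraries correlated at 0.980. Member results at d6 that 1 of them decides are also given without it, and the other listed genes were not refitted. The summed level of 10 fibroblast markers was 26890 and 34970 CPM (read counts over TMM-scaled library size) in WT d0, 2271 to 4182 in WT at d2 to d8, 415 to 2128 in K36M at d2 to d8, and 3456 to 4194 in the iPSCs of both genotypes. The summed level of 10 pluripotent cell markers was at most 1.02 CPM in the 4 d0 libraries, 10.4 to 333 in WT and 45.3 to 1867 in K36M at d2 to d8, and 5312 to 5650 in the iPSCs. These markers changed over the same stages as most members described here, while some members, such as Rbbp7 in WT, varied little. The part of these markers in each result was not tested. In such bulk samples, fewer cells of a type and less RNA per cell cannot be told apart.

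Compared per kilobase of exon, Rbbp7 was the most abundant member in all 14 groups, and the order of the others changed with stage. In WT d0 the CPM per kb was 150.2 ± 6.84 for Rbbp7, 35.7 ± 4.54 for Eed, 20.1 ± 1.20 for Suz12, 18.6 ± 0.191 for Aebp2 and 11.0 ± 0.370 for Ezh2 (mean ± SD, n = 2). Phf1 at 8.31 ± 0.815, Mtf2 at 6.36 ± 0.00477, Ezh1 at 2.84 ± 0.316, Phf19 at 2.01 ± 0.0351 and Jarid2 at 2.01 ± 0.214 CPM per kb formed the low end. In WT iPSCs Mtf2 stood at 54.3 ± 0.218, Ezh2 at 44.9 ± 1.37 and Jarid2 at 36.3 ± 0.307 CPM per kb, all above Aebp2 at 13.0 ± 0.383. The accessory genes Mtf2 and Jarid2, among the lowest in fibroblasts, had thus passed Aebp2 in iPSCs. The span over the groups also differed between genes: the highest group mean was 24.7 times the lowest for Jarid2, 9.36 times for Mtf2, 6.14 times for Ezh2 and 1.91 times for Rbbp7. Of the 13 pairs of neighbouring groups in the order of a gene's means, 1 overlapped for Jarid2, 4 each for Ezh2 and Mtf2, 5 for Ezh1 and 9 for Phf1. Such pairs were not counted over all genes, so these counts do not set a member apart from other genes.

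**Figure D1:**
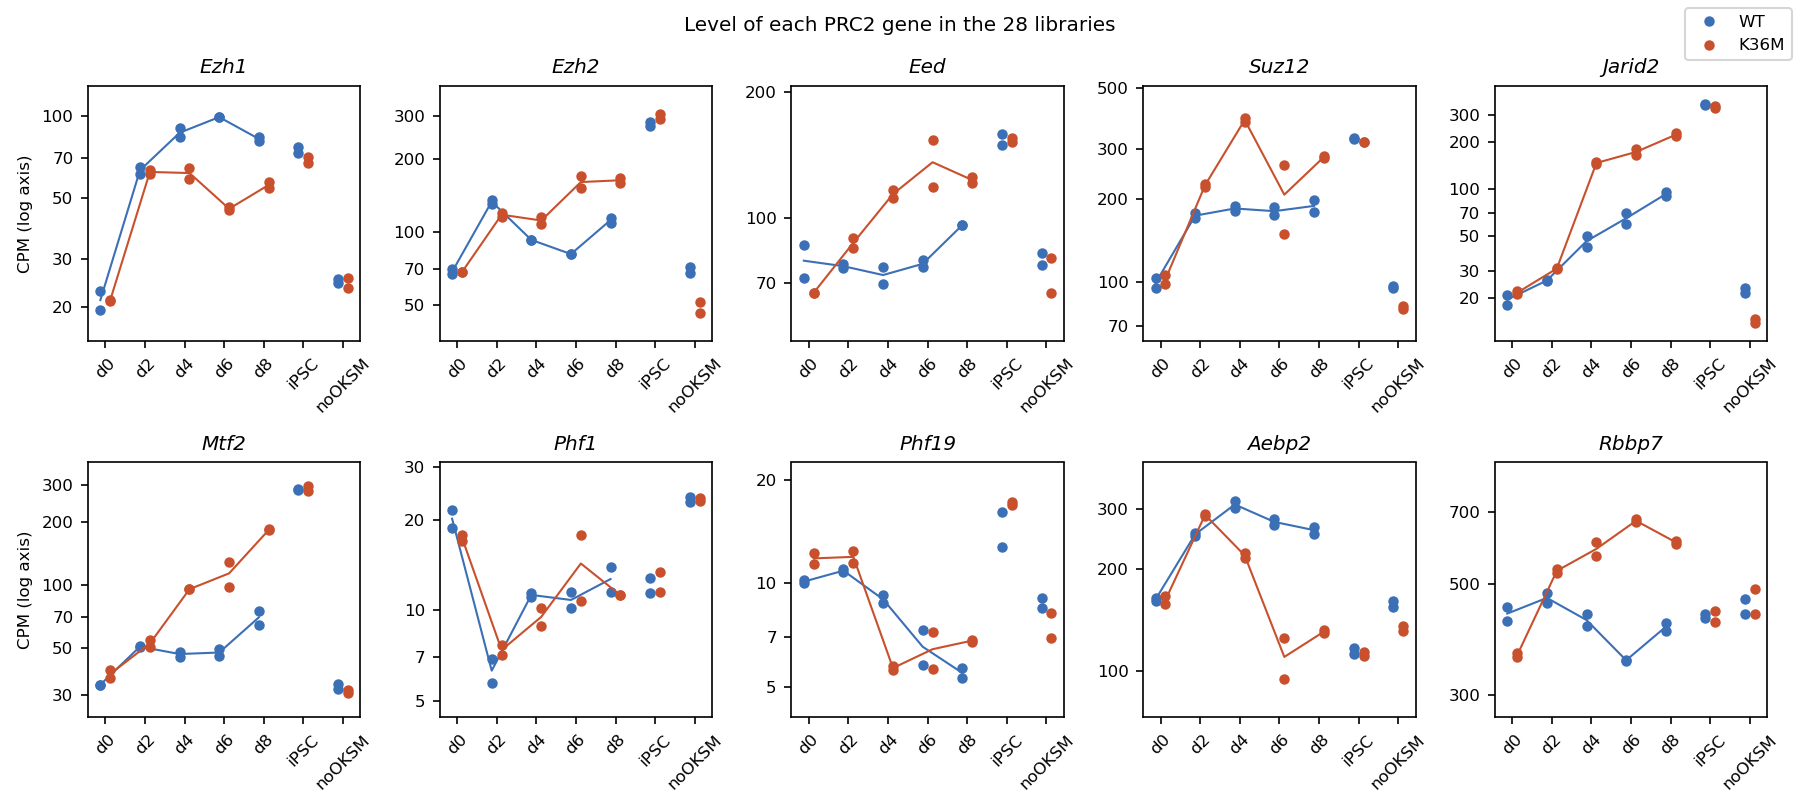
CPM of each member (log axis) in the 2 WT (blue) and 2 K36M (orange) libraries of each stage; lines join group means from d0 to d8. The K36M libraries of Jarid2 lie above the WT ones at d2, d4, d6 and d8, those of Ezh1 and Aebp2 below them at d4, d6 and d8, and in iPSCs the log2 differences of these 3 genes are -0.12 or closer to 0.

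The genotypes differed in most members between d4 and d8, little at d0 and d2, and in none in iPSCs by the test used (edgeR quasi-likelihood, adjusted p below 0.05 over all genes). At d4, 6 of 10 members (Ezh2, Eed, Suz12, Jarid2, Mtf2 and Rbbp7) were higher in K36M and 3 (Ezh1, Phf19 and Aebp2) lower, where 27.1% and 25.8% of the 16932 genes tested were higher and lower. At d6, 6 were higher and 2 lower, beside 37.3% and 33.7% of all genes, and at d8 again 6 and 2, beside 31.6% and 29.0%. Over d2 to d8 together, in a model with day as a factor, 6 members were higher (Jarid2, Mtf2, Suz12, Rbbp7, Eed and Ezh2) and 2 lower (Ezh1 and Aebp2), beside 30.2% and 28.2% of 15954 genes. At d2 alone, both K36M libraries of Ezh2 lay below WT and both of Aebp2 above, opposite to the shared difference, with neither called. The median log2 fold change of the 10 members over d2 to d8 was 0.44 and that of all genes 0.020. Scaling keeps the median of all genes near no change, so that value is no independent background. Without regard to direction, the median size was 0.53 for members and 0.44 for all genes. It was 0.57 and 0.53 at d4, 0.96 and 0.81 at d6, and 0.56 and 0.59 at d8. At d0 only Rbbp7 differed, lower in K36M, beside 7.60% and 8.31% of all genes higher and lower.

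At d2 no member passed in edgeR, beside 9.74% and 10.4% of all genes higher and lower. DESeq2 called 2 (Jarid2 and Rbbp7), both higher in K36M. In edgeR, 4 had an unadjusted p below 0.05: Suz12, Jarid2 and Rbbp7 higher in K36M, and Ezh2 lower. No share of all genes is given for DESeq2 or for the unadjusted threshold, so these 2 counts stand without a background. In iPSCs no member passed in edgeR or DESeq2, and only 0.756% and 0.490% of all genes were called higher and lower in edgeR. None of the members had an unadjusted p below 0.05 there. The largest member difference in iPSCs was 0.25 ± 0.130 on the log2 scale for Phf19. In noOKSM MEFs 3 members (Ezh2, Jarid2 and Aebp2) were lower in K36M and none higher, beside 18.2% of all genes higher and 16.7% lower. The Aebp2 call was lost with RLE scaling, library totals or no filter. The K36M difference varied among d2, d4, d6 and d8 for 9 of 10 members, all but Phf1, with 64.7% of all genes varying. It differed between d0 and the later stages jointly for the same count of members, 9, with 75.8% of all genes. At d4, d6 and d8, 52.9%, 70.9% and 60.6% of all genes were called in either direction, so that a call on these days does not set a member apart from other genes.

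**Figure D2:**
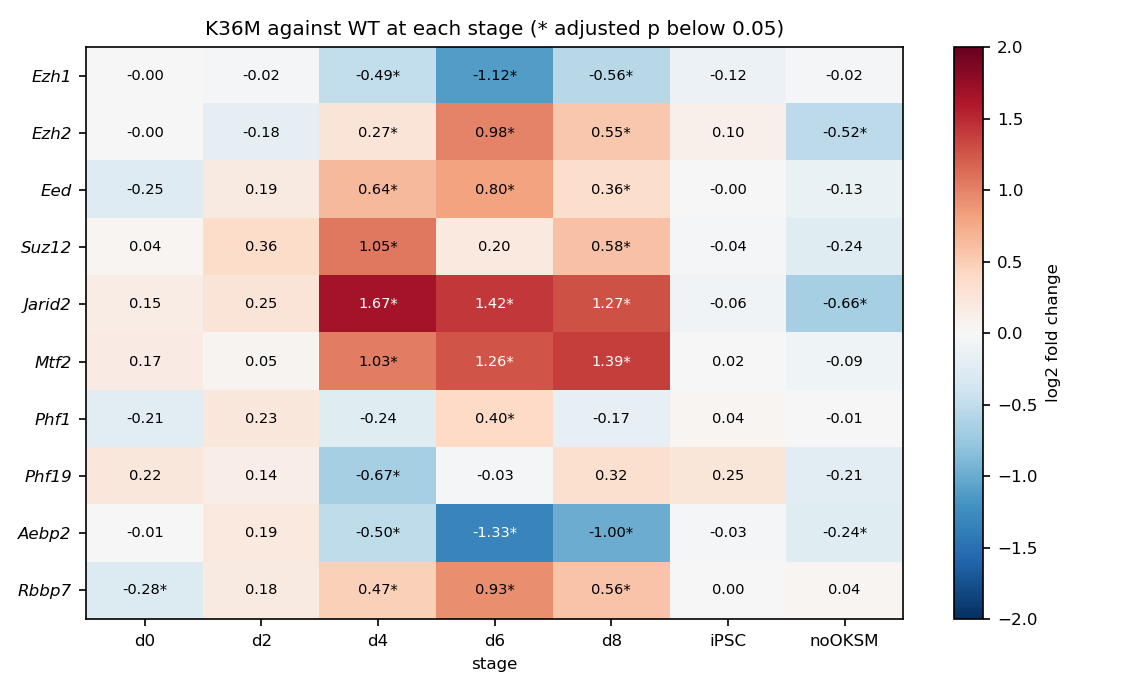
Log2 fold change of K36M against WT for each member (rows) at each stage (columns), with an asterisk where the edgeR adjusted p was below 0.05. Red fills at d4, d6 and d8 run through Jarid2 and Mtf2 (1.03 to 1.67), blue through Ezh1 and Aebp2 (-0.49 to -1.33), and no iPSC cell carries an asterisk.

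Against their own d0, most members changed along the course in both genotypes, as did most genes. In WT, 7 of 10 members changed by d2, where 57.8% of all genes did, 7 by d4 (57.4% of all genes), 9 by d6 (59.0%), 9 by d8 (64.0%) and 9 in iPSCs (77.5%). Ezh1, Ezh2, Suz12, Jarid2 and Mtf2 rose at each of these stages in WT and Phf1 fell at each, though not at d8 and in iPSCs when scaled by library totals. In K36M, 9 had changed by d2 (61.1% of all genes), 10 by d4 (68.9%), 9 by d6 (77.9%), 10 by d8 (73.5%) and 10 in iPSCs (75.5%), and Eed and Rbbp7 were among the genes that rose at each. From d8 to iPSC, 7 members changed in WT (70.0% of all genes) and 7 in K36M (51.6%), with Ezh2, Eed, Jarid2, Mtf2 and Phf19 rising in both genotypes. Fibroblast markers differed between d8 and iPSC as well: in K36M all 10 were higher in iPSCs (median log2 difference 2.85), from 1088 and 1106 CPM at d8 to 3456 and 3916, and in WT 3 were higher and 6 lower, with 3372 and 3451 and 3722 and 4194 CPM. Their part in the member changes was not tested. The WT rise of Ezh2 at d6 was 0.24 ± 0.0812 and was not called without WT d0 replicate 2 (adjusted p = 0.0895) or WT d6 replicate 2 (0.0526). The K36M rise of Eed from d8 to iPSC, 0.32 ± 0.108, was not called with any 1 of its 4 libraries left out (adjusted p = 0.0504 to 0.0939). Scaling by library totals in place of TMM moved the median of all genes upward by 0.22 to 0.41 on the log2 scale in the comparisons of d2 to iPSC with d0, and smaller changes against d0 are read against that shift. Comparisons of several stages with 1 d0 group share its libraries and are not independent.

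**Figure D3:**
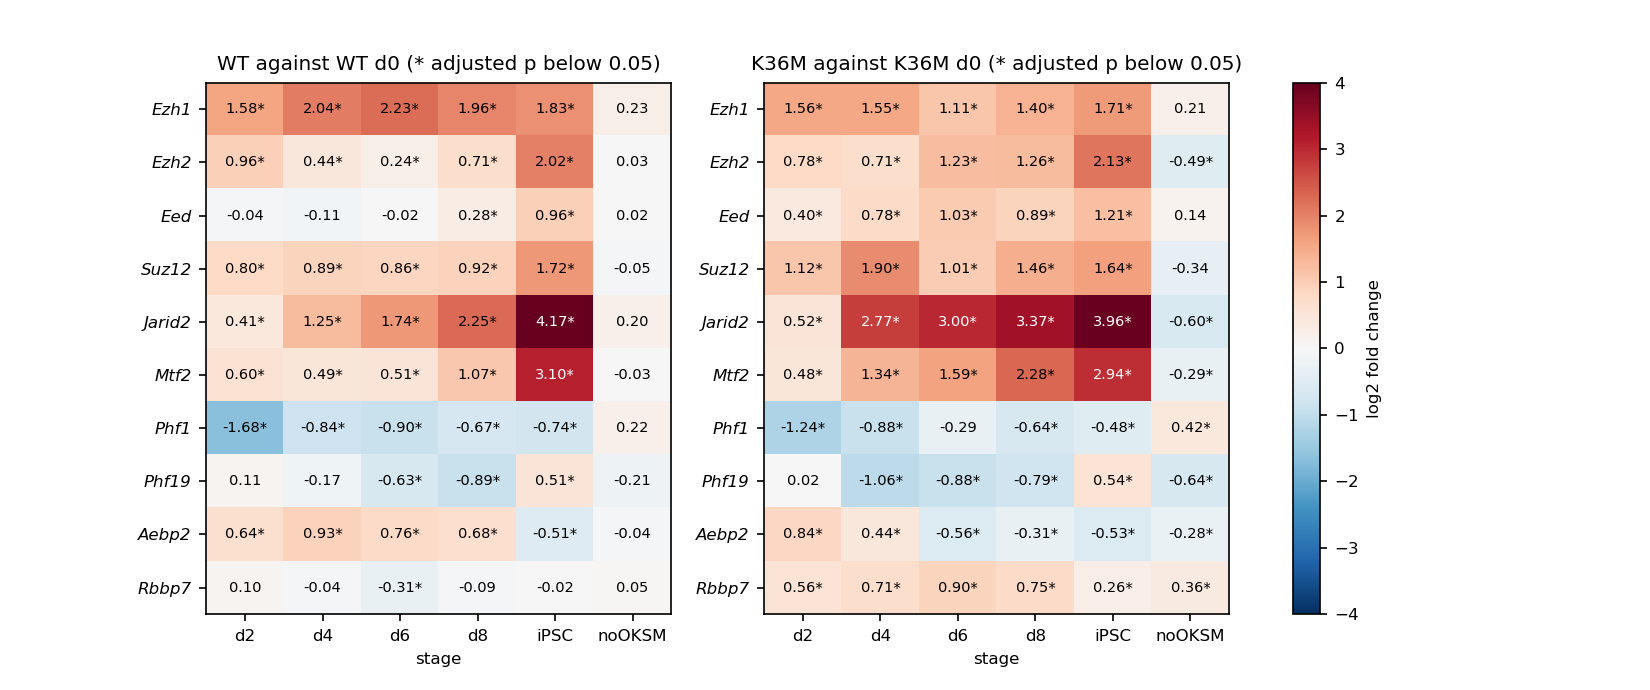
Log2 fold change of each member against d0 of the same genotype, WT left and K36M right, with an asterisk where the edgeR adjusted p was below 0.05. Jarid2 and Mtf2 reach 4.17 and 3.10 in WT iPSCs, with K36M values at d4 to d8 above the WT ones of the same day; Phf1 is blue from d2 to iPSC.

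The catalytic subunits took different courses. Ezh2, the main enzyme of dividing cells, lies on chromosome 6 from 47480273 to 47545340 of mm9 and read 70.0 and 66.7 CPM in WT d0. Its WT level was 136 and 130.5 at d2, 92.5 and 92.7 at d4, 80.8 and 81.1 at d6, 109 and 114 at d8 and 272 and 284 in iPSCs. WT Ezh2 was therefore high at d2, lower at d4 and d6, and highest in iPSCs, with no overlap between these groups. K36M read 68.2 and 68.2 CPM at d0, 119.9 and 115 at d2, 108 and 114 at d4, 169.7 and 151 at d6, 167 and 159 at d8 and 306 and 292 in iPSCs. At d2 both K36M libraries lay below both WT libraries, with a log2 difference of -0.18 ± 0.0797 that was not called. From d4 to d8 both K36M libraries lay above both WT libraries. The K36M excess was 0.98 ± 0.0806, adjusted p = 2.76e-10 on the log2 scale at d6 and 0.55 ± 0.0796, adjusted p = 3.29e-06 at d8. At d4 it was 0.27 ± 0.0801, adjusted p = 0.00764, and was not called without WT d4 replicate 1 (0.22, adjusted p = 0.0829) or K36M d4 replicate 2 (0.22, adjusted p = 0.0803). The difference shared over d2 to d8 was 0.39 ± 0.12, adjusted p = 0.0115, and without the d6 libraries it was 0.21 (adjusted p = 0.0892).

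Ezh2 is a known target of the factors that drive entry into S phase, and 16 genes of DNA replication and E2F control are given beside it. In WT their sum followed the same order of stages as Ezh2; it was 1234 and 1302 CPM in WT d0, 2667 and 2673 at d2, 1570 and 1626 at d4, 1359 and 1447 at d6, 1722 and 1773 at d8 and 4181 and 4235 in iPSCs. In K36M it was 2719 and 2755 at d2, 2660 and 2735 at d4, 2823 and 2832 at d6 and 2602 and 2653 at d8. The K36M sum of these replication genes stayed nearly level from d2 to d8, while K36M Ezh2 was higher at d6 and d8 than at d2 and d4. From d4 to d8 that sum was above both WT libraries of the day. The summed level of 10 mitosis genes in K36M was 2295 and 2318 CPM at d2 and 2714 and 2827 at d4. It was 2609 and 3047 CPM at d6 and 2962 and 3041 at d8. The part of cell division in the Ezh2 result was not tested.

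Ezh1, the enzyme known from non-dividing cells, lies on chromosome 11 from 101052429 to 101087777 and rose early in both genotypes. It read 19.5 and 22.8 CPM in WT d0, 65.1 and 61.5 at d2, 83.6 and 90.2 at d4, 99.2 and 99.2 at d6, 80.9 and 84.1 at d8 and 77.0 and 73.1 in iPSCs. The WT rise was 1.58 ± 0.0895, adjusted p = 5.26e-13 at d2 and 2.23 ± 0.0903, adjusted p = 9.47e-16 at d6, its highest group. K36M cells shared the rise at d2, with 61.5 and 63.4 CPM from 21.2 and 21.1 at d0. They then read 64.8 and 58.9 at d4, 46.4 and 45.1 at d6, 57.5 and 54.3 at d8 and 67.5 and 71.0 in iPSCs. All K36M libraries of d4 to d8 lay below the WT ones, and the log2 difference was -0.49 ± 0.0841, adjusted p = 3.15e-05 at d4, -1.12 ± 0.0851, adjusted p = 8.13e-11 at d6 and -0.56 ± 0.0842, adjusted p = 4.68e-06 at d8. In iPSCs the difference was -0.12 ± 0.0842 and not called.

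Set against each other per kilobase, Ezh1 made up 20.5% ± 2.36 of the pair's summed level in WT d0. Its WT share was 28.4% ± 0.262 at d2 and 43.9% ± 1.28 at d4, peaked at 50.5% ± 0.0547 at d6, and was back to 38.1% ± 0.157 at d8 and 18.4% ± 1.01 in iPSCs. Both enzymes were thus about level in transcript at d6 of WT. The K36M share went from 20.5% ± 0.117 at d0 to 31.6% ± 2.34 at d4, then back to 19.2% ± 0.993 at d6, with 22.2% ± 0.153 at d8 and 16.2% ± 0.965 in iPSCs. The per-kilobase scale depends on the transcript assumed: with the longest transcript in place of all exons, the WT d6 share was 43.6% ± 0.0538 and that of K36M d6 15.3% ± 0.827. These shares are descriptions and carry no test.

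**Figure D4:**
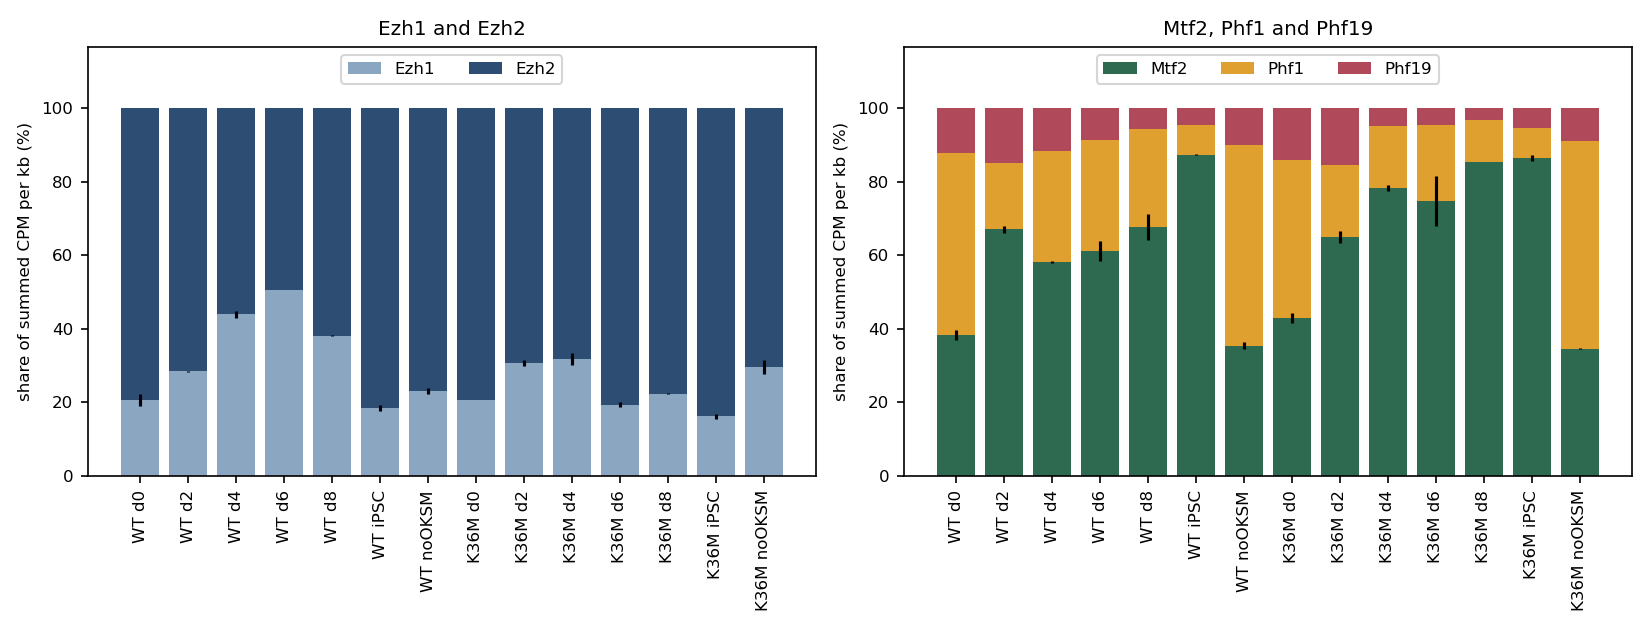
Share of the summed CPM per kilobase held by Ezh1 and Ezh2 (left) and by Mtf2, Phf1 and Phf19 (right) in each group; bars are means of 2 libraries, and the black line spans the 2 libraries for the lowest segment. Ezh1 reaches 50.5% in WT d6 and 19.2% in K36M d6, and Mtf2 grows from 38.2% in WT d0 to 87.4% in WT iPSCs.

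Of the other core genes, Suz12, the scaffold of the complex on chromosome 11 from 79806608 to 79847625, rose in both genotypes, and more in K36M at d4. It read 95.4 and 104 CPM in WT d0, 170.2 and 177 at d2, 179.7 and 189 at d4, 174 and 186 at d6, 178 and 198 at d8 and 331 and 327 in iPSCs. WT Suz12 stayed on 1 plateau from d2 to d8, between 170.2 and 198 CPM. K36M values were 106 and 99.1 at d0, 226 and 221 at d2, 376 and 389.6 at d4, 149 and 264 at d6, 284 and 280.2 at d8 and 319 and 320.0 in iPSCs. Both d4 libraries of K36M exceeded even the iPSCs, and their excess over WT was 1.05 ± 0.146, adjusted p = 1.94e-06. At d8 the excess was 0.58 ± 0.145, adjusted p = 0.00142. At d6 the K36M replicates lay on either side of WT, and the difference was 0.20 ± 0.145, adjusted p = 0.228. The difference was 0.55 without K36M d6 replicate 1 and -0.28 without replicate 2, so that at this day 1 library sets its sign. Its standard error draws on all groups and does not show the gap between these 2 libraries. An opposite-strand lincRNA, Gm16706, shares exon sequence with Suz12 but held 499 counts over all libraries.

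Eed, which reads the K27 mark and lies on chromosome 7 from 97103166 to 97129493, changed little in WT before iPSC. WT libraries ranged from 69.7 to 86.3 CPM at d0 to d6, read 96.0 and 96.4 at d8 and 149 and 159 in iPSCs, where the rise over d0 was 0.96 ± 0.109, adjusted p = 3.35e-08. K36M read 66.4 and 66.3 CPM at d0, 89.6 and 85.0 at d2, 112 and 116 at d4, 118 and 153 at d6 and 121 and 125 at d8. K36M libraries lay above WT on each of these days from d2, and the called excess was 0.64 ± 0.109, adjusted p = 2.89e-05 at d4, 0.80 ± 0.109, adjusted p = 8.21e-07 at d6 and 0.36 ± 0.108, adjusted p = 0.00663 at d8. The WT rise of 0.28 ± 0.109 at d8 was not called without WT d0 replicate 2 (0.16, adjusted p = 0.307) or either WT d8 library.

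Rbbp7, a histone-binding subunit that PRC2 shares with other chromatin complexes, lies on chromosome X from 159198334 to 159217024 and overlaps the opposite-strand gene Txlng in exon sequence, so reads of the 2 genes may mix if strand was not used. It varied least of the members: WT libraries stayed between 352 and 480 CPM at all stages. K36M read 357 and 364 CPM at d0, 538 and 527 at d2, 569.6 and 609 at d4, 666 and 676 at d6 and 612 and 603 at d8. From d2 to d8 all 8 K36M libraries were above the WT libraries of their day, by 0.93 ± 0.0796, adjusted p = 5.74e-10 at d6, the widest gap. At d0 K36M was lower, with a log2 difference of -0.28 ± 0.0791, adjusted p = 0.0182, a call lost without WT d0 replicate 1 (adjusted p = 0.189), K36M d0 replicate 1 (0.134) or K36M d0 replicate 2 (0.0852). Rbbp4, its alternative in the complex, showed a shared d2 to d8 difference of 0.047 ± 0.0820, adjusted p = 0.647. The Rbbp7 to Rbbp4 ratio per kilobase was 2.58 ± 0.0299 in WT d6 and 4.76 ± 1.04 in K36M d6, though the 2 K36M d6 libraries read 364 and 504 CPM for Rbbp4.

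Among the Polycomb-like genes, Mtf2 was the main transcript per kilobase from d2 to iPSC in both genotypes, and its level was higher in K36M from d4 to d8. Mtf2, which guides PRC2 to CpG islands, lies on chromosome 5 from 108494693 to 108538023 and overlaps exons of the opposite-strand gene Tmed5. Tmed5 held 57629 counts over all libraries, so reads of these genes may mix if strand was not used. Mtf2 read 33.4 and 33.5 CPM in WT d0, 50.4 and 51.1 at d2, 45.5 and 48.1 at d4, 45.9 and 49.4 at d6, 64.6 and 75.5 at d8 and 285 and 287 in iPSCs. WT Mtf2 was far higher in iPSCs than on any day of reprogramming, and its rise over d0 was 3.10 ± 0.11, adjusted p = 3.38e-17, which is 8.54-fold. K36M read 39.5 and 35.8 at d0, 50.7 and 54.5 at d2, 95.6 and 95.5 at d4, 98.3 and 129 at d6, 184 and 182 at d8 and 282 and 296 in iPSCs. From d4 on, all K36M libraries before iPSC exceeded every WT library of d2 to d8. The excess over WT was 1.03 ± 0.103, adjusted p = 1.5e-08 at d4, 1.26 ± 0.103, adjusted p = 3.01e-10 at d6 and 1.39 ± 0.102, adjusted p = 6.42e-11 at d8.

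Phf1, on chromosome 17 from 27070072 to 27074835, was the Polycomb-like gene that fell first, at d2, in both genotypes. Its WT libraries read 21.6 and 18.8 CPM at d0, 5.72 and 6.87 at d2 and 10.2 to 13.9 from d4 to iPSC, and its K36M libraries 17.0 and 17.9 at d0 and 7.64 and 7.11 at d2. The fall at d2 was -1.68 ± 0.172, adjusted p = 1.38e-08 in WT and -1.24 ± 0.173, adjusted p = 1.37e-06 in K36M. At d4 and d8 no genotype difference was called, with -0.24 ± 0.171 and -0.17 ± 0.165. At d6 K36M read 17.9 and 10.8, and its excess of 0.40 ± 0.166, adjusted p = 0.0372 was -0.0089 (adjusted p = 0.967) without K36M d6 replicate 1. It was also not called without WT d6 replicate 1 (0.49, adjusted p = 0.0504) or WT d6 replicate 2 (0.31, adjusted p = 0.20). With library totals in place of TMM, the falls against d0 were no longer called at d8, with -0.31 (adjusted p = 0.0893) in WT and -0.23 (adjusted p = 0.217) in K36M. The same held in iPSCs, with -0.36 (adjusted p = 0.0527) in WT and -0.12 (adjusted p = 0.526) in K36M.

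Phf19, on chromosome 2 from 34749277 to 34769546, was the least abundant member per kilobase in most groups. Its lowest group was d8 in WT and d4 in K36M. WT libraries read 10.2 and 10.0 CPM at d0, 8.75 and 9.23 at d4, 5.68 and 5.29 at d8 and 12.7 and 16.1 in iPSCs. The WT iPSC rise over d0 was 0.51 ± 0.135, adjusted p = 0.00152, and 0.33 (adjusted p = 0.0674) without WT iPSC replicate 2. K36M libraries read 12.3 and 11.4 at d0, 5.61 and 5.73 at d4, 6.86 and 6.77 at d8 and 17.0 and 17.3 in iPSCs. K36M had reached by d4 the level that WT reached by d8. Its difference from WT at d4 was -0.67 ± 0.146, adjusted p = 0.000494, and no other stage passed. The d8 excess of 0.32 ± 0.147, adjusted p = 0.0673, was called in edgeR with RLE scaling (adjusted p = 0.0421) and library totals (0.0282). As a share of the 3 Polycomb-like genes per kilobase, Mtf2 made up 38.2% ± 1.96 in WT d0, 58.1% ± 0.254 in WT d4, 78.3% ± 1.26 in K36M d4, 67.7% ± 4.99 in WT d8, 85.4% ± 0.0893 in K36M d8 and 87.4% ± 0.0687 in WT iPSCs. Phf1 held 49.8% ± 2.36 of that sum in WT d0 and 8.02% ± 0.672 in WT iPSCs. In K36M d0 the shares were 42.9% ± 1.99 for Mtf2 and 43.1% ± 2.44 for Phf1, and the 2 libraries put a different gene first. The order at d0 also depends on the length used: with the longest transcript, Mtf2 and Phf1 held 42.8% ± 1.94 and 43.1% ± 2.32 in WT, and 47.2% ± 1.90 and 36.6% ± 2.31 in K36M.

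Jarid2, which helps recruit PRC2 and stimulates its activity, had the widest range of all members and the largest gap between genotypes at d4 and d6. At d8 the gap of Mtf2 was larger (log2 1.39). Jarid2 lies on chromosome 13 from 44824843 to 45017012. It read 18.1 and 21.0 CPM in WT d0, 25.6 and 26.2 at d2, 42.8 and 50.0 at d4, 70.5 and 59.7 at d6, 90.4 and 95.8 at d8 and 355 and 350.3 in iPSCs. The WT groups stood in ascending steps without overlap, and iPSCs were 18.0-fold above d0 (log2 4.17 ± 0.107, adjusted p = 2.51e-19). K36M read 22.1 and 21.1 at d0, 30.8 and 31.1 at d2, 149 and 146 at d4, 181 and 167 at d6, 219.5 and 228 at d8 and 341 and 334 in iPSCs. The K36M libraries of d4 were already above every WT library of d8. K36M exceeded WT 3.17-fold at d4 (log2 1.67 ± 0.0953, adjusted p = 1.16e-12), 2.67-fold at d6 (log2 1.42 ± 0.0941, adjusted p = 7.78e-12) and 2.40-fold at d8 (log2 1.27 ± 0.0928, adjusted p = 6.09e-11). The excess shared over d2 to d8 was 1.15 ± 0.15, adjusted p = 1.94e-05, and in iPSCs the difference was -0.063 ± 0.0907, not called.

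Aebp2, the partner of JARID2 in the same form of the complex, ran opposite to it late in the course. The gene lies on chromosome 6 from 140570970 to 140626993. It read 161 and 164 CPM in WT d0, 251 and 255 at d2, 303 and 318 at d4, 280.5 and 270.3 at d6, 267 and 254 at d8 and 116 and 112 in iPSCs. WT Aebp2 was thus raised throughout reprogramming and below its d0 level in iPSCs; that last fall was -0.51 ± 0.0936, adjusted p = 3.35e-05, and -0.13 (adjusted p = 0.202) with library totals. K36M read 166 and 157 at d0, 287 and 291 at d2, 223 and 215 at d4, 94.5 and 125 at d6, 132 and 129 at d8 and 110.4 and 113 in iPSCs. By d6 and d8 the K36M libraries were near the iPSC level while WT libraries were still at 254 CPM or above. K36M was lower, with a log2 difference of -0.50 ± 0.0926, adjusted p = 8.05e-05 at d4, -1.33 ± 0.0944, adjusted p = 2.53e-11 at d6 and -0.997 ± 0.0936, adjusted p = 3.97e-09 at d8. The ratio of Jarid2 to Aebp2 per kilobase was 0.108 ± 0.0104 in WT d0, 0.323 ± 0.0243 in WT d8 and 2.79 ± 0.0584 in WT iPSCs. In K36M it was 0.120 ± 0.000655 at d0, 0.607 ± 0.00937 at d4, 1.55 ± 0.0656 at d8 and 2.72 ± 0.0884 in iPSCs.

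The MEFs without OKSM formed a second pair of fibroblast groups, whose library names carry another prefix than those of all other libraries, so that this label and the absence of OKSM cannot be told apart. In WT no member differed from d0 in edgeR, beside 8.20% of all genes, and none in DESeq2. Ezh1 alone had an unadjusted p below 0.05 in edgeR, a threshold at which no share of all genes is given. In K36M, 7 members differed from d0, as did 34.5% of all genes; the calls of Mtf2, Phf1 and Aebp2 were lost whichever of the 4 libraries was left out. Jarid2 read 23.3 and 21.6 CPM in WT noOKSM and 14.7 and 13.8 in K36M noOKSM, a difference of -0.66 ± 0.102, adjusted p = 2.19e-05. Ezh2 read 67.3 and 71.9 CPM in WT noOKSM and 46.2 and 51.1 in K36M noOKSM, a difference of -0.52 ± 0.0814, adjusted p = 2.71e-05. K36M was thus lower for both genes here and not at d0. Tested directly, the genotype difference in noOKSM departed from that at d0 for 3 members, with 25.1% of all genes called: Jarid2 by -0.80 ± 0.145, adjusted p = 0.000351, Ezh2 by -0.51 ± 0.115, adjusted p = 0.00248 and Rbbp7 by 0.31 ± 0.112, adjusted p = 0.0434. The Rbbp7 call was lost without any of 6 of the 8 libraries, at adjusted p values of 0.0554 to 0.215. Aebp2 was lower in K36M noOKSM, with a log2 difference of -0.24 ± 0.0929, adjusted p = 0.0488, a call lost without any 1 of the 4 libraries (-0.21 to -0.27). The call was also lost in edgeR with RLE scaling (adjusted p = 0.0589), no filter (0.0768) and library totals (-0.080, adjusted p = 0.536). Library totals moved the median of all genes upward by 0.16 in this comparison. The 16 replication genes summed to 1177 and 1203 CPM in WT noOKSM and 956 and 1021 in K36M noOKSM, lower in the mutant as Ezh2 was, with 6 genes called lower and none higher. The 10 mitosis genes went the other way, with 1108 and 1110 CPM in WT noOKSM and 1192 and 1230 in K36M noOKSM, and 4 called higher and none lower. Endothelial markers summed to 6.04 and 7.46 CPM in WT noOKSM and 20.2 and 24.2 in K36M noOKSM (4 of 6 called higher and 1 lower). Tie1 was at 0 in WT, and 4 of the 6 averaged below 1 CPM in each of the 2 groups. Fibroblast markers summed to 31670 and 36030 and 20800 and 27950 CPM (2 of 10 called higher and 1 lower). The part of these lists in the noOKSM results was not tested.

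Over the 14 group means, the members fell into unlike patterns. Pearson's r of log2 CPM was 0.955 between Jarid2 and Mtf2, 0.949 between Eed and Mtf2, 0.941 between Ezh2 and Mtf2 and -0.753 between Phf1 and Ezh1; the points share stage and medium, and the values are descriptions. Ezh1 and Ezh2 reached only 0.58. Among 10087 genes with a mean of at least 5 CPM, those most like Jarid2 were Mtmr7 (0.989), Ddb2 (0.985) and Gpbp1l1 (0.983), and those most like Ezh2 were Rtn4ip1 (0.989), Dhx16 (0.987) and Cpsf1 (0.980). The nearest to Ezh1 were She (0.987), Pcsk6 (0.979) and Tesk2 (0.974), and the nearest to Phf19 were Csrp2bp (0.932), Smarca4 (0.912) and Ibtk (0.883).

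**Figure D5:**
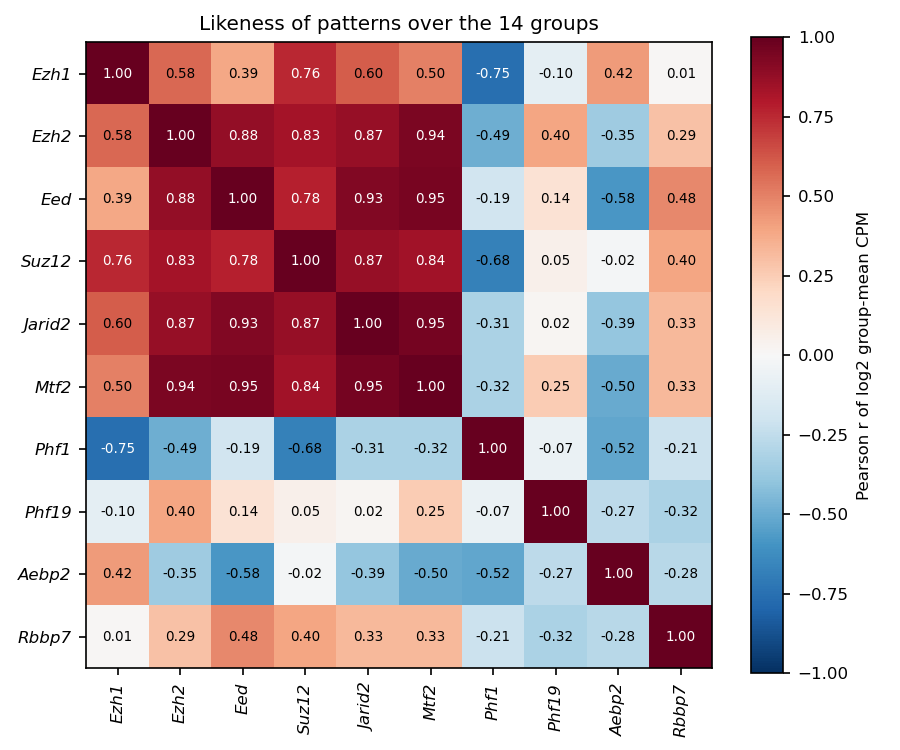
Pearson's r of log2 group-mean CPM between members over the 14 groups. Ezh2, Eed, Suz12, Jarid2 and Mtf2 form a block of 0.78 or higher, and Phf1 is negative against every other member.

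Other Polycomb genes were read in the same comparison over d2 to d8, where 30.2% of all genes were higher and 28.2% lower in K36M. Of 4 tested components that can join PRC2, 2 were lower and none higher: Lcorl (-0.97 ± 0.197, adjusted p = 0.000712) and Lcor (-0.99 ± 0.358, adjusted p = 0.0275). E130012A19Rik, the older symbol of Epop, changed direction between days: it was higher in K36M at d2 (0.80 ± 0.126, adjusted p = 5.08e-05), d4 (1.51 ± 0.126, adjusted p = 6.83e-10) and d6 (0.73 ± 0.124, adjusted p = 1.87e-05), and lower at d8 (-0.86 ± 0.125, adjusted p = 3.25e-06). Its difference over d2 to d8 together was 0.55 ± 0.246, adjusted p = 0.0663, not called. The genes of the enzymes that remove K27 methylation were not called over d2 to d8 together (Kdm6a -0.20 ± 0.176, adjusted p = 0.343; Kdm6b 0.077 ± 0.141, adjusted p = 0.663; Uty -0.054 ± 0.203, adjusted p = 0.836), but single days differed in direction. At d6 all 3 were lower in K36M, beside 33.7% of all genes, with a median log2 difference of -0.78. Their summed levels were 144 and 149.9 CPM in WT and 73.8 and 104 in K36M. These genes were not refitted without either K36M d6 library. At d4 Kdm6b was higher (0.58 ± 0.172, adjusted p = 0.00659), and at d8 Kdm6a was higher (0.51 ± 0.197, adjusted p = 0.0315). Of 19 genes of PRC1, the complex that reads the PRC2 mark, 8 were higher and 8 lower, with a median of 0.16. Phc1 (1.32 ± 0.139, adjusted p = 2.96e-06), Cbx7 (1.29 ± 0.140, adjusted p = 3.81e-06), a reader of the K27 mark known from pluripotent cells, and Cbx2 (0.59 ± 0.0860, adjusted p = 5e-05) had the smallest adjusted p. Of 20 listed genes known as Polycomb targets, 10 to 13 averaged below 1 CPM in each group of d2 to d8, where large changes can rest on few counts. Of the 16 tested, 4 were higher and 8 lower, with a median of -0.996. They were led by Cdkn2b (-1.47 ± 0.141, adjusted p = 1.32e-06), an inhibitor of the cell cycle, Gata4 (2.24 ± 0.269, adjusted p = 9.44e-06) and Olig2 (4.94 ± 0.518, adjusted p = 1.05e-05), developmental regulators; Olig2 had no counts at d2 in either genotype, nor in WT d4.

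Most genes of cell division were higher in K36M in that comparison. Of 16 replication and E2F genes, 12 were higher and 1 lower in K36M, with a median of 0.53, led by Mcm5 (0.88 ± 0.119, adjusted p = 2.59e-05), Mcm2 (0.87 ± 0.123, adjusted p = 3.82e-05) and Ccne1 (0.74 ± 0.114, adjusted p = 8.24e-05). All 10 mitosis genes were higher, with a median of 0.95, among them Ccnb1 (1.07 ± 0.151, adjusted p = 3.48e-05), Aurka (0.99 ± 0.135, adjusted p = 2.75e-05) and Plk1 (0.98 ± 0.147, adjusted p = 6.24e-05). Of the cell type lists, 9 of 10 fibroblast markers were lower and 10 of 10 pluripotent cell markers higher. The same comparison called Jarid2, Mtf2 and Ezh2 higher and Aebp2 and Ezh1 lower. Summed levels over all 28 libraries were 6.99 to 45.4 CPM for 7 macrophage markers, 6.04 to 132 for 6 endothelial, 1.85 to 497 for 6 skeletal muscle, 92.8 to 325 for 5 neuronal and 1.86 to 45.7 for 5 keratinocyte markers. In each group 4 or 5 of the 6 skeletal muscle genes and 3 to 5 of the 6 endothelial genes averaged below 1 CPM. Those 2 sums therefore rest on few genes. Keratinocyte markers moved with the genotype on the days when most members did: they summed to 4.25 and 4.30 CPM in WT d4 and 32.2 and 34.0 in K36M d4, and to 4.00 and 5.20 in WT d6 and 37.8 and 45.7 in K36M d6. Of the 4 tested, 2 were higher and 1 lower on each of these days, and Trp63 was at 0 in K36M d4. Of all genes, 27.1% were higher and 25.8% lower at d4, and 37.3% and 33.7% at d6. Neuronal markers summed to 113 and 126 CPM in WT d6 and 161 and 205 in K36M d6, with 4 of 5 called higher. At d8 the sum was also higher in K36M, with 92.8 and 107 CPM in WT and 127 and 136 in K36M. It was lower in K36M at d2, with 318 and 325 CPM in WT and 273 and 287.5 in K36M. At d4 it was lower as well, with 204 and 220 CPM in WT and 178.6 and 179.1 in K36M, although 3 markers were called higher and 1 lower. The part of these lists in the member differences was not tested. Macrophage markers were at 42.1 and 45.4 CPM in WT d0 and 13.0 and 13.2 in K36M d0, and their part in the Rbbp7 difference at d0 was not tested.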

How the data were processed

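Raw counts of reads in each gene, as the authors deposited them in 1 table, were used for 28 poly(A) RNA libraries (miRNeasy extraction and a directional NEBNext kit, per the labels' protocols). STAR 2.5.0, HTSeq 0.11.2, edgeR and the build mm9 stand in the submitters' processing notes; the strand setting is not given in the sources used here, so overlapping genes are uncertain. No value column was left unused (0). Locations and exon lengths come from GENCODE vM1 on mm9, where 37205 of 37620 gene IDs matched; promoters come from RefSeq on GRCm38.p6.

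The count analysis used edgeR 4.0.16 under R 4.3.3 (TMM, filterByExpr with a minimum count of 10 and total of 15, robust quasi-likelihood). A model of all 14 groups (16932 genes, 14 residual degrees of freedom) gave the comparisons, and one restricted to d2, d4, d6 and d8 (16 libraries, with a factor for day) the shared difference (15954 genes, 11 degrees). P-values were two-sided, adjusted by Benjamini-Hochberg over all genes and called below 0.05; ± on a log2 difference is its standard error, its size over the square root of F. Likeness used log2 of mean CPM plus 0.5. Scripts were tested on simulated data. Alternatives were other scalings, no filter, a replicate block, DESeq2 1.42.0, longest transcripts and leaving out libraries. All 10 members are named, with up to 3 genes per other list, those with the smallest adjusted p. Same-numbered WT and K36M libraries deviated from their group means with correlations of -0.057 to 0.13, so numbers were not taken as pairs. The members and lists were chosen with earlier results of these data known.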

Additional observations from a re-analysis of the deposited data

Results flagged for a closer look

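Differences between genotypes that changed with stage were tested with interaction terms in edgeR. Among d2, d4, d6 and d8 the K36M difference varied for Aebp2 (adjusted p = 1.01e-08), Jarid2 (5.85e-08), Ezh2 (1.16e-07), Mtf2 (2.09e-07), Ezh1 (9.31e-07), Rbbp7 (6.05e-05), Phf19 (0.00140), Suz12 (0.00512) and Eed (0.00517). A joint test of the 5 later OKSM stages (d2 to iPSC) against d0 found a change of the difference for Jarid2 (5.51e-11), Aebp2 (1.57e-09), Mtf2 (3.19e-09), Rbbp7 (3.29e-08), Ezh2 (5.97e-08), Ezh1 (1.19e-07), Eed (1.71e-05), Suz12 (0.000527) and Phf19 (0.00153). In MEFs without OKSM against d0, it departed for Jarid2 (0.000351), Ezh2 (0.00248) and Rbbp7 (0.0434). Groups of 2 libraries were not screened for outlying values.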

How the results depend on the processing

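The 250 values of members (10 genes in 25 comparisons) were recomputed 2820 times. Of 1340 recomputed with another setting, 1293 kept their side of the threshold, 22 lost it, 19 gained it and 6 reversed; of 1480 with 1 library left out, 1427 kept it, 42 lost it, 9 gained it and 2 reversed. A further 82 sign changes concerned values called in neither fit, whose reported size was at most 0.29 on the log2 scale. The cause was not tested for any change below.

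Library totals changed 24 of 250 values, RLE scaling 4, no filter 11 and DESeq2 3. With library totals, reversed log2 values against d0 were those of Rbbp7 in WT d4 (0.23), d6 (0.020), d8 (0.27) and iPSC (0.36), of Eed in WT d6 (0.31) and of Aebp2 in K36M d8 (0.096). Members called at d0 became 0 with no filter; at d2 (0 in the report) they became 1 with RLE, 3 with library totals, 1 with no filter and 2 with DESeq2. All genes called in iPSCs went from 211 to 447 with no filter and 319 with DESeq2.

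With 1 library left out, members called ranged from 0 to 2 at d0, from 4 to 4 for K36M noOKSM against d0 (7 with all) and from 0 to 1 for WT noOKSM against d0 (Ezh1 without WT d0 replicate 2). All genes called ranged from 1200 to 2754 at d0 (2694 with all), 2097 to 2253 at d2 (3405), 55 to 251 in iPSCs (211), 2301 to 4788 for the noOKSM difference against d0 (4246), 3315 to 5589 for K36M noOKSM against d0 (5834) and 635 to 1379 for WT noOKSM against d0 (1389). At d6 Suz12 ranged from -0.28 to 0.55 and Phf1 from -0.0089 to 0.72.

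Replicate numbers were not taken as pairs, although the low correlations given above cannot exclude a pairing. A replicate block on the number changed 2 of 250 values, and a block on the number within stage 2 of 80: members called at d2 became 1 (Suz12), and Aebp2 in noOKSM was not called (adjusted p = 0.0504 and 0.0671). The block lost or gained no other call except Phf1 among d2 to d8 (adjusted p = 0.0382). Per-length shares and ratios moved by more than the replicate SD with the longest transcript in 137 of 154 cases.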
